A study of Mus musculus with 9 samples.

Results

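The genes described here are 10 genes of the retinoic acid pathway, of 21457 features measured in nuclei of adult mouse spinal cholinergic neurons. They were chosen by name and not by level, because *Aldh1a2* is known in the embryo as a gene of the motor columns that innervate the limbs. Of the 10 genes, 3 code for enzymes that make retinoic acid (*Aldh1a1*, *Aldh1a2* and *Aldh1a3*), 1 for an enzyme that breaks it down (*Cyp26b1*), 1 for a protein that binds it in the cytoplasm (*Crabp1*), 3 for retinoic acid receptors (*Rara*, *Rarb* and *Rarg*) and 2 for retinoid X receptors (*Rxra* and *Rxrg*).

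All samples came from 8-week-old mice that carried Chat-IRES-Cre together with the reporter Sun1-sfGFP, and no group without these alleles or with a treatment was compared. Cre was made under the control of *Chat*, the gene of the acetylcholine-making enzyme, and switched on for good a GFP-tagged protein of the nuclear envelope, so GFP+ nuclei include those of cells that made *Chat* only at an earlier time. The 12 mice, 6 male and 6 female, were pooled by 4, and the cords of every pool were cut in a cervical, a thoracic and a lumbar/sacral part, which makes 3 replicates of each of 3 regions, or 9 libraries. Replicates of the same number come from the same mice, and a replicate is a pool and not an animal. Replicate 1 held mice of both sexes, replicate 2 only males and replicate 3 only females. Sex therefore cannot be told apart from other differences between pools, and leaving out a replicate also changes the sexes compared. An effect of sex was not tested. The authors sorted 16042 cholinergic nuclei into 21 clusters in 3 classes, with 3 clusters of skeletal motor neurons (MNs) called S1 (Type 3), S2 (alpha) and S3 (gamma), 10 of visceral MNs (V1 to V10) and 8 of cholinergic interneurons (I1 to I8).

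Retinoic acid is made from vitamin A in successive oxidations, the last of them from retinaldehyde by enzymes of the Aldh1a family. It is a small diffusible molecule that enters the nucleus and binds retinoic acid receptors, which sit on DNA as pairs with retinoid X receptors and switch target genes on when the ligand is bound. Cyp26 enzymes oxidize it further and so clear it. In the embryonic spinal cord, retinoic acid from the flanking mesoderm helps to pattern the hindbrain and spinal cord along the body axis and favours neuronal differentiation, and MNs at limb levels themselves come to express *Aldh1a2*.

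In the GENCODE models of GRCm38, *Aldh1a1* lies at chr19:20492715-20643465, *Aldh1a2* at chr9:71215789-71296243, *Aldh1a3* at chr7:66390890-66427517 and *Cyp26b1* at chr6:84571414-84593908. *Crabp1* lies at chr9:54764748-54773110, on the chromosome of *Aldh1a2*. The receptor genes *Rara* (chr11:98927818-98974942), *Rarb* (chr14:16430839-16819156), *Rarg* (chr15:102234938-102257517), *Rxra* (chr2:27676440-27762957) and *Rxrg* (chr1:167598384-167639623) each lie on a chromosome of their own. All 10 are protein-coding, and the authors counted reads against unspliced transcripts, so reads in introns are included. *Aldh1a2* overlaps the opposite-strand gene *Gm48124*.

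Values below are the authors' corrected counts, added up within each library for every class or cluster and expressed per 1000000 corrected counts of that sum (CPM), given as mean ± SD over libraries. Libraries held 747 to 2825 nuclei, and their median nucleus held 4712 to 16127 corrected counts. In lumbar/sacral replicates 1 to 3 this median was 4712, 7175 and 5701, against 7087 to 16127 in the cervical and thoracic libraries. Each of the 5 listed skeletal MN markers was highest in skeletal MNs, where they added up to 428 to 757 CPM, against 124 to 239 in visceral MNs and 8.69 to 25.5 in interneurons. Visceral markers added up to 1044 to 1685 CPM in visceral MNs and interneuron markers to 724 to 831 CPM in interneurons, with exceptions. *Nos1*, on the visceral list, was higher in interneurons (446 against 208 CPM), *Tgfb2* was as high in skeletal as in visceral MNs (27.0 and 27.4 CPM), and *Lhx1*, on the interneuron list, was at 1.08 CPM in interneurons and 2.51 in skeletal MNs. Markers of vascular and meningeal cells added up to 1.56 to 7.09 CPM over all class sums. Some markers of other cells were higher. Microglial *P2ry12* was at 33.5 ± 36.2 CPM in skeletal MNs, 28.8 ± 28.0 in interneurons and 19.4 ± 21.7 in visceral MNs. *Cx3cr1* had class means of 9.39 to 10.5 CPM, but *Csf1r* and *Tmem119* of at most 0.96. Oligodendrocyte *Mbp* was at 59.2 ± 12.2 CPM in skeletal MNs, whereas *Mog* had class means of at most 1.38. The source of this RNA was not tested. Of the nuclei, 33 barcodes occurred in more than 1 library, with at most 4 shared by any pair of libraries.

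A pair of libraries stood apart on the genes that mark position along the cord. *Hoxc5* was at 22.5 and 25.4 CPM in cervical replicates 3 and 1 and at 84.2 and 85.3 CPM in thoracic replicates 3 and 1, whereas it was at 73.3 CPM in the library labelled cervical replicate 2 and at 13.9 CPM in the library labelled thoracic replicate 2. Of 5 Hox genes compared, 4 put each of these libraries nearer to the other region, and at most 1 did so in the other 4 libraries of cervical and thoracic cord. *Hoxd11*, a gene of caudal levels, was at 0 in the 6 cervical and thoracic libraries and at 23.0 to 31.0 CPM in the 3 lumbar/sacral libraries. Both libraries of the pair come from the male pool. The labels were kept, and values without this pair are given beside the results by region.

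No member reached a mean of 10 CPM in all 21 clusters. Several were still found in every cluster at lower levels, with lowest cluster means of 4.39 CPM for *Rarb*, 4.06 for *Rarg*, 3.06 for *Rxra* and 2.45 for *Rara*. *Rarb* reached 10 CPM in 17 of the 21 clusters, *Aldh1a1* in 11, *Rxra* in 7, *Rara* and *Rarg* in 6 each, *Rxrg* in 3, and *Aldh1a2* and *Cyp26b1* in 1 each. *Aldh1a3*, the third synthetic enzyme, gave 15 corrected counts in 15 nuclei of the whole set. *Crabp1*, the cytoplasmic binding protein, gave 201 corrected counts in 190 nuclei and a mean of at most 3.08 CPM in any cluster, which it had in I7. When the clusters were ordered by the mean of each gene, 17 to 19 of the 20 neighbouring pairs differed by less than the SD of their paired differences over libraries, so most of the order is not resolved, and the steps named below as larger than the spread are those among a gene's leading clusters.

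**Figure D1:**
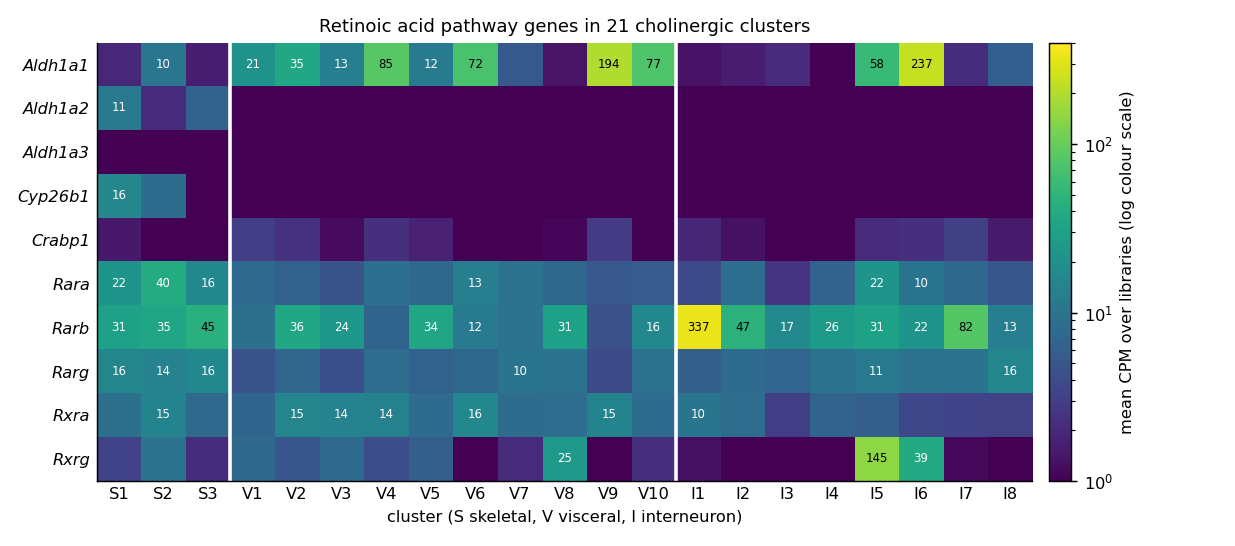
Mean level of the 10 genes in the 21 clusters, in CPM on a logarithmic colour scale with values under 1 drawn at 1. *Aldh1a2* and *Cyp26b1* stand out in skeletal clusters, *Rarb* in I1 (337 CPM), *Rxrg* in I5 (145 CPM) and *Aldh1a1* in I6 (237 CPM) and V9 (194 CPM).

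Classes were compared by limma on log2(CPM + 5), with each class set against the mean of the other 2 and a change called at an adjusted p under 0.05 and a log2 difference of at least 1. Because the authors drew classes and clusters from expression in these same nuclei, such comparisons describe how the groups differ and are not independent evidence. *Aldh1a2* and *Rara* were higher and *Aldh1a1* lower in skeletal MNs, *Aldh1a1* was higher and *Rarb* lower in visceral MNs, and *Rarb* and *Rxrg* were higher in interneurons. These are 3, 2 and 2 of the 7 members tested, beside 10.2%, 7.69% and 6.59% of all genes tested in those comparisons. A gene was tested where at least 3 sums reached 10 CPM, and *Aldh1a2* and *Rarg* passed only through skeletal sums, so their direction was fixed and the counts of members are a description. *Cyp26b1*, *Aldh1a3* and *Crabp1* did not pass and were not tested there.

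*Aldh1a2*, the main source of retinoic acid in the embryo, was almost confined to skeletal MNs, which held 340 of its 354 corrected counts. In skeletal MNs it was at 7.96, 0 and 8.90 CPM in cervical replicates 1 to 3, at 0, 19.5 and 0 CPM in thoracic replicates 1 to 3, and at 10.1, 11.8 and 4.49 CPM in lumbar/sacral replicates 1 to 3. Detected libraries thus included every lumbar/sacral one, and the 3 libraries at 0 were thoracic replicates 1 and 3 and the library labelled cervical replicate 2. As nuclei with at least 1 count, these were 51, 0 and 42 in cervical, 0, 102 and 0 in thoracic and 37, 47 and 18 in lumbar/sacral libraries. The 0 of cervical replicate 2 was among 166 skeletal nuclei, which allows a share of up to 1.81%, and those of thoracic replicates 1 and 3 were among 266 and 228, which allow up to 1.13% and 1.32%. The libraries with the gene had it in 2.46% to 14.9% of skeletal nuclei. The class difference of 1.0 ± 0.18 (SE, adjusted p = 4.70e-05) adds nothing to these values, since the gene passed the filter on low values only through its skeletal sums and therefore had to be higher there. Limits of this kind cover counting error only and bear on nuclei with a count, not on nuclei that make the RNA.

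Limb levels, the mean of cervical and lumbar/sacral libraries, were compared with thoracic libraries in skeletal MNs because the embryonic columns of the limbs lie at those levels. *Aldh1a2* differed by a log2 difference of 0.42 ± 0.56 (SE), with an adjusted p of 0.9998 from limma, and the groups overlapped. With all 9 libraries the two-sided exact permutation test gave p = 0.476 for all skeletal MNs (adjusted over 4 tests 0.635), where 0.0119 is the smallest p that 84 groupings allow. Without the 2 libraries at odds with their label, the 5 limb-level libraries were at 8.65 ± 2.73 CPM and both thoracic libraries at 0, a log2 difference of 1.42 with an exact permutation p of 0.0476. That is the smallest p that 21 groupings allow, and after adjustment over 4 tests it was 0.0635. S1 and S3 then had the same p, with log2 differences of 1.94 and 1.45, and S2 had 0.43 (exact permutation p = 0.429). The values against 0 rest on the added 5 CPM and are not fold changes. Leaving out only the library labelled thoracic replicate 2 gave 1.19 in skeletal MNs (exact permutation p = 0.107), and leaving out thoracic replicate 1 or 3 gave 0.04. No member was called between limb and thoracic levels in skeletal MNs or in S2, where 0.00% of all genes were called by limma. At an unadjusted p under 0.05 by limma there were 157 of 9999 genes tested in skeletal MNs and 315 of 10387 in S2, with no other tool run. In each case that is a smaller share than 0.05.

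Among the skeletal clusters *Aldh1a2* was highest in S1. In S1 it was at 17.4, 0 and 15.9 CPM in cervical, 0, 28.8 and 0 in thoracic and 18.2, 14.0 and 7.81 in lumbar/sacral replicates 1 to 3. In S3 the values were 9.35, 0 and 9.05, then 0, 15.0 and 0, then 9.06, 11.3 and 5.40 CPM. Both clusters were therefore at 0 in the same 3 libraries, and S1 was above S3 in each of the other 6. S2 was at 2.05 ± 3.17 CPM (n = 9), with its highest values of 7.95 CPM in the library labelled thoracic replicate 2 and 7.15 CPM in lumbar/sacral replicate 2. The log2 difference S1 minus S2 was 0.996 ± 0.197 (SE, adjusted p = 0.000332), which falls just under a log2 difference of 1 (1.16 without replicate 2, which passes). *Aldh1a2* passed the filter in the skeletal clusters, and in the 21 clusters below, only through S1, and with no filter on low values the adjusted p of this difference was 0.00115. S1 minus S3 was 0.36 ± 0.20 (adjusted p = 0.258). S2 minus S3 was -0.64 ± 0.20 (adjusted p = 0.0141), short of the size required. Outside the skeletal clusters the highest mean was 0.64 CPM, in I6.

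**Figure D2:**
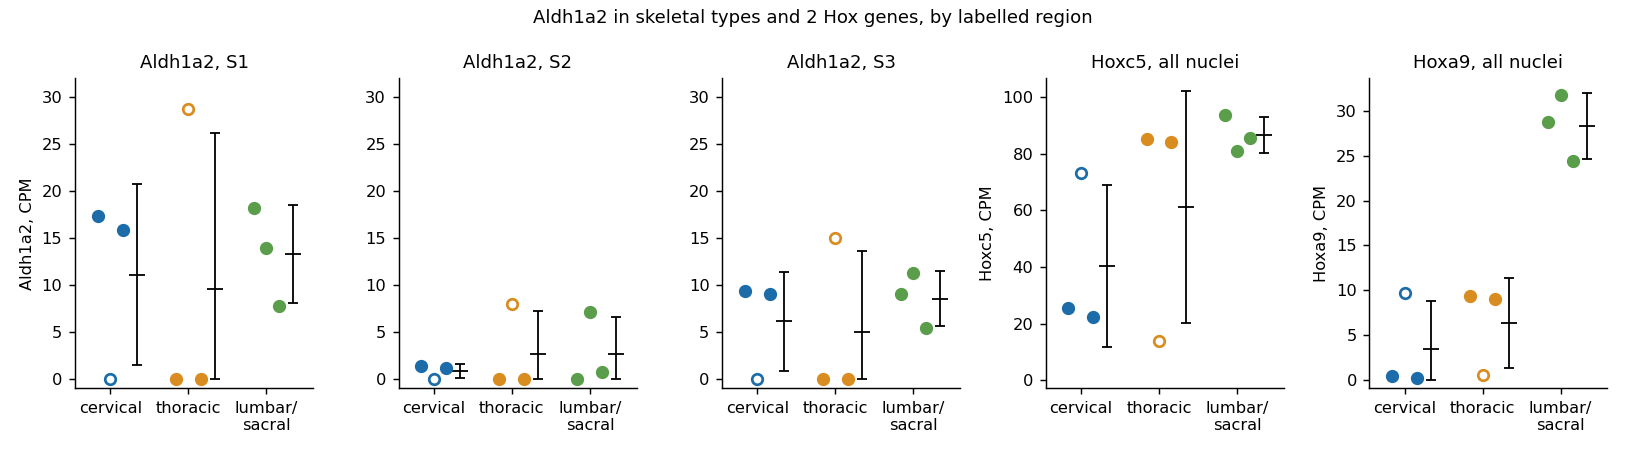
*Aldh1a2* in S1, S2 and S3 and the positional genes *Hoxc5* and *Hoxa9* in all nuclei, in CPM, by labelled region, with a point per library, open circles for the 2 libraries whose Hox levels go against their label and bars for mean ± SD of 3 libraries cut at 0. The filled thoracic points lie at 0 in each skeletal cluster, the open thoracic point is the highest in S1 (28.8 CPM) and S3 (15.0 CPM), and the open cervical point lies at 0.

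*Cyp26b1*, whose product clears retinoic acid, was also a gene of skeletal MNs, with 240 of its 266 corrected counts there. Unlike *Aldh1a2* it was found in all 9 skeletal sums, at 2.32, 4.32 and 6.84 CPM in cervical, 9.84, 5.35 and 13.7 CPM in thoracic and 6.24, 6.69 and 7.33 CPM in lumbar/sacral replicates 1 to 3. Thoracic replicates 1 and 3, which had no *Aldh1a2*, were its highest libraries. The library labelled cervical replicate 2 also had no *Aldh1a2*, and its 4.32 CPM of *Cyp26b1* lay above cervical replicate 1 only. By cluster it was at 16.2 ± 7.88 CPM in S1, 8.23 ± 6.31 in S2 and 0.90 ± 1.1 in S3 (n = 9 each), and at most 0.53 CPM in any other cluster. In S1 it ran from 5.39 to 32.6 CPM, above S3 in every library, whose values ran from 0 to 2.88 CPM. S1 exceeded S3 by a log2 difference of 1.78 ± 0.21 (SE, adjusted p = 1.74e-07) and S2 exceeded S3 by 1.05 ± 0.21 (adjusted p = 0.000248; 0.95 without replicate 2, under the size required). S1 minus S2 was 0.73 ± 0.21 (adjusted p = 0.00968), short of a log2 difference of 1. In S2, limb levels minus thoracic gave -0.46 ± 0.39 (adjusted p = 0.985).

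By mean the synthetic and the clearing enzyme were both highest in S1, though neither S1 minus S3 for *Aldh1a2* nor S1 minus S2 for *Cyp26b1* was called. Between S2 and S3 they differed in opposite directions, and of these only the difference of *Cyp26b1* reached the size required. Of 1528 S1 nuclei, 152 had a count of *Aldh1a2*, 149 of *Cyp26b1* and 12 of both. Of 2241 S3 nuclei, 130 had *Aldh1a2*, 15 had *Cyp26b1* and 0 had both, and of 1285 S2 nuclei the numbers were 15, 56 and 0. At 1 or 2 counts per nucleus a missing count does not show that a nucleus lacks the RNA. The number with both that independent detection would give was not computed, so these counts do not show separate groups of nuclei.

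**Figure D3:**
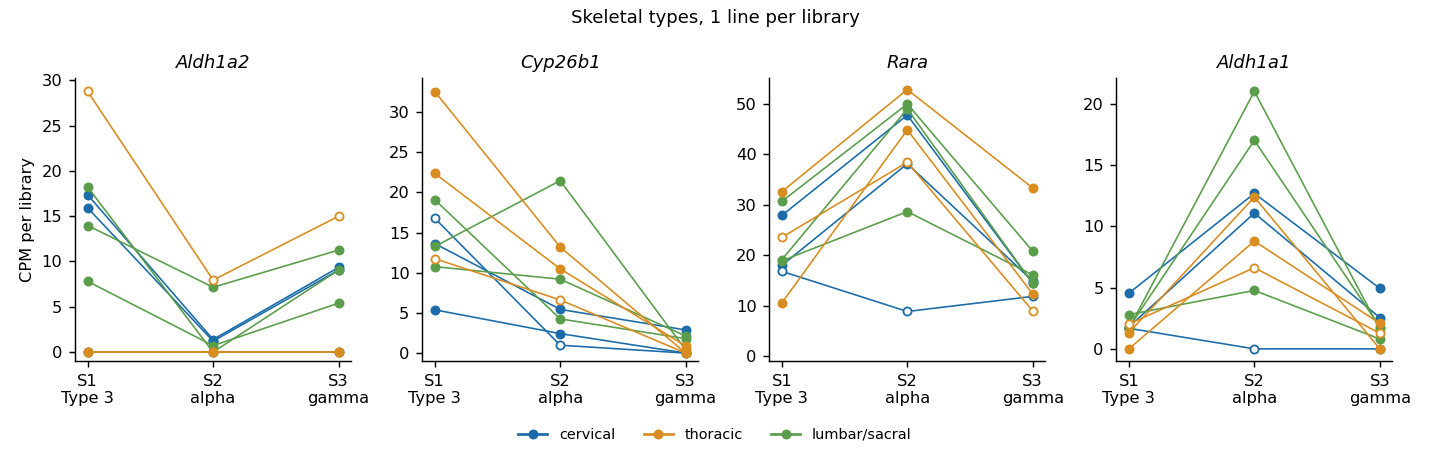
*Aldh1a2*, *Cyp26b1*, *Rara* and *Aldh1a1* in S1 (Type 3), S2 (alpha) and S3 (gamma), in CPM, with a line per library coloured by labelled region and open circles for the 2 libraries whose Hox levels go against their label. *Cyp26b1* is lower in S3 than in S1 in every library, the mean of *Aldh1a2* is highest in S1, and *Rara* is highest in S2 in every library but the one labelled cervical replicate 2.

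Between the skeletal clusters, S1 minus S2, S1 minus S3 and S2 minus S3 called 1, 1 and 3 of 8 members tested, beside 5.23%, 5.33% and 8.12% of all genes. Apart from *Cyp26b1* these calls concerned *Aldh1a1* and *Rara*. *Cyp26b1* passed the filter only through S1 and S2 and *Aldh1a1* only through S2, so these counts are a description. *Rara*, the most widely expressed receptor of its family in adult tissue, was at 39.8 ± 13.8 CPM in S2, 22 ± 7.21 in S1 and 16.3 ± 7.15 in S3. In S2 its values were 38.1, 8.83 and 47.7 CPM in cervical, 44.8, 38.4 and 52.8 in thoracic and 49.9, 28.6 and 48.9 in lumbar/sacral replicates 1 to 3, so 8 of 9 libraries lay at or above 28.6 CPM. S2 exceeded S3 by a log2 difference of 1.03 ± 0.17 (SE, adjusted p = 3.60e-05), and by 0.92 without replicate 1 and 0.96 without replicate 3, both under the size required, and 1.21 without replicate 2. The low value belongs to the library labelled cervical replicate 2, whose 71 S2 nuclei had skeletal markers at 162 CPM, the lowest of the 9 libraries, whose median was 739 CPM. S1 minus S2 for *Rara* was -0.68 ± 0.17 (adjusted p = 0.00434), short of a log2 difference of 1.

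*Rara* set skeletal MNs apart from the other classes, with 24.1 ± 7.12 CPM against 7.92 ± 1.97 in interneurons and 7.85 ± 1.82 in visceral MNs (n = 9 each). Skeletal values ran from 11.8 to 35.4 CPM and the values of the other classes from 5.22 to 11, so the groups did not overlap. The log2 difference was 1.15 ± 0.08 (SE, adjusted p = 3.37e-11). Outside the skeletal clusters the highest mean was 22.5 ± 7.21 CPM, in I5. *Rarg*, the third receptor of this family, was at 7.09 ± 2.84 CPM in visceral MNs, 8.58 ± 1.32 in interneurons and 15.6 ± 3.48 in skeletal MNs. Its skeletal difference of 0.68 ± 0.08 (SE) was short of the size required, and its direction was fixed by the filter. *Rxra*, a partner shared by many nuclear receptors, had 6.67 ± 1.71 CPM in interneurons beside 10.2 ± 4.19 in skeletal and 10.6 ± 3.03 in visceral MNs, and was called in no class.

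*Rarb* is both a receptor and a textbook target of retinoic acid, whose promoter carries a response element to which receptor pairs bind. Its sequence is shown because the level of this gene separates clusters and regions below. The 100 bases before the RefSeq start site, chr14:16575477-16575576 on the minus strand of GRCm38.p6, read as follows, with the letters matched by the search in capitals.

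*Rarb* promoter: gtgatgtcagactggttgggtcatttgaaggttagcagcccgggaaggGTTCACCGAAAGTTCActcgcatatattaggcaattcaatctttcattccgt

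The capitals, from 52 to 37 bases before the start, match the letters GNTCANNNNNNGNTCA, which are 2 cores of 5 bases with 6 bases between them. The cores stand for the last 5 bases of 6-base half-sites in a direct repeat with 5 bases between half-sites. The first base of the first half-site is therefore not among the capitals. Both strands were searched from 250 bases before to 50 after each start, and 283 of 32851 such windows held this pattern (0.861%). Of 16 windows of 9 members (*Aldh1a3* has no entry), only that of *Rarb* held it. The shorter spacings GNTCANNNGNTCA and GNTCANNGNTCA, which overlap no shown match, were in 1.12% and 1.26% of windows and in none of a member. A match is a description of the letters and does not show binding in these nuclei.

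By class *Rarb* was at 111 ± 21 CPM in interneurons, 20.3 ± 17.0 in visceral and 38.9 ± 5.42 in skeletal MNs (n = 9 each). The interneuron difference was 1.91 ± 0.19 (SE, adjusted p = 1.69e-08) and the visceral one -1.75 ± 0.19 (adjusted p = 4.69e-08). *Rarb* overlaps *Top2b* on the opposite strand, and since the sources used here do not state the strand setting of the counting, reads of the overlap cannot be assigned with certainty. Its level in interneurons came mostly from I1. In I1 it was at 317, 425 and 395 CPM in cervical, 305, 290 and 246 in thoracic and 379, 363 and 311 in lumbar/sacral replicates 1 to 3, and 74.8 ± 9.21% of I1 nuclei had a count (66.6 ± 9.78% after thinning each nucleus to 4600 corrected counts). The next cluster was I7, another interneuron group, at 82.4 ± 46.0 CPM (n = 6), and the step from I1 to I7 was larger than the spread (mean log2 difference 2.13, SD 0.78 over 6 libraries). I2 (46.6 ± 21.1 CPM), S3 (45.2 ± 4.29), V2 (36.4 ± 48.1) and S2 (34.7 ± 13.8) followed without a step beyond the spread.

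*Rxrg*, a retinoid X receptor of restricted expression in the nervous system, was at 22.7 ± 5.26 CPM in interneurons, 4.03 ± 1.12 in skeletal and 6.46 ± 5.40 in visceral MNs. Its interneuron difference was 1.49 ± 0.17 (SE, adjusted p = 2.37e-07). The signal came from I5, at 125, 95.5 and 169 CPM in cervical, 137, 141 and 144 in thoracic and 165, 161 and 162 in lumbar/sacral replicates 1 to 3. In I5 70.1 ± 8.48% of nuclei had a count (48.4 ± 8.56% after thinning). I6 followed at 38.7 ± 10.1 CPM and V8 at 25.1 ± 1.97 CPM (n = 3), and both steps were larger than the spread (mean log2 differences 1.79, SD 0.50, and 0.54, SD 0.31). I1, the cluster with the most *Rarb*, had *Rxrg* at 0 to 2.18 CPM in its 9 libraries, and I5 had *Rarb* at 15.3 to 57.4 CPM.

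**Figure D4:**
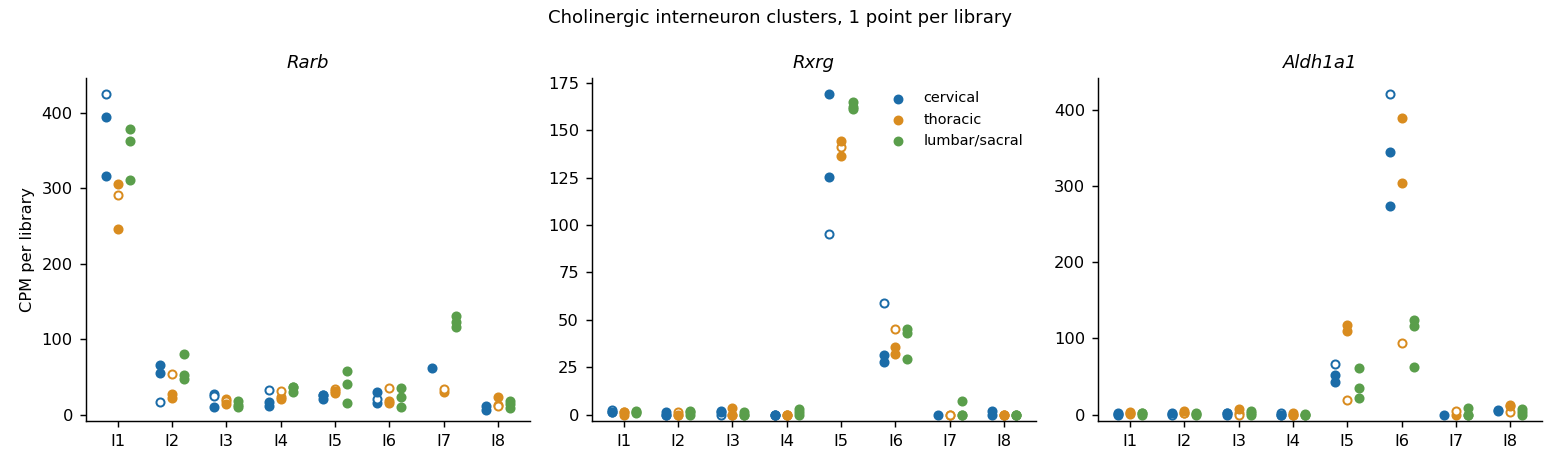
*Rarb*, *Rxrg* and *Aldh1a1* in the interneuron clusters, in CPM, with a point per library coloured by labelled region and open circles for the 2 libraries whose Hox levels go against their label. *Rarb* peaks in I1 (246 to 425 CPM), *Rxrg* in I5 (95.5 to 169 CPM) and *Aldh1a1* in I6 (62.9 to 421 CPM).

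*Aldh1a1*, a synthetic enzyme that also oxidizes other aldehydes, was found in some clusters of visceral MNs and interneurons. By class it was at 39.1 ± 27.7 CPM in interneurons, 39.3 ± 22.4 in visceral and 4.06 ± 2.45 in skeletal MNs (n = 9 each). Skeletal MNs were lower by -2.07 ± 0.25 on the log2 scale (adjusted p = 3.25e-07) and visceral MNs higher by 1.11 ± 0.25 (adjusted p = 0.000721; 0.94 without replicate 2, under the size required), whereas the interneuron difference of 0.96 ± 0.25 (adjusted p = 0.00332) fell short of the size required. In I6 it was at 345, 421 and 273 CPM in cervical, 390, 94.6 and 304 in thoracic and 117, 62.9 and 125 in lumbar/sacral replicates 1 to 3. In I6 all lumbar/sacral values lay under the cervical ones, and the library labelled thoracic replicate 2 lay among the lumbar/sacral values. V9 had 194 ± 51.3 CPM (n = 6), not separated from I6 (mean log2 difference 0.54, SD 0.78), and V4 (85.1 ± 61.2), V10 (77.4 ± 30.8), V6 (72.2 ± 40.3) and I5 (58.5 ± 35.3) followed. The interneuron clusters I1, I2, I3, I4 and I7 had means of 0.63 to 2.17 CPM, under the 10.5 CPM of S2. Within skeletal MNs S2 held most of it, and S2 exceeded S3 by 1.11 ± 0.19 (adjusted p = 3.23e-05) while S1 minus S2 was -1.04 ± 0.19 (adjusted p = 0.000108; -0.88 without replicate 3, under the size required). Among the skeletal clusters it passed the filter only through S2, and with no filter these adjusted p were 0.000113 and 0.000339. *Aldh1a1* overlaps *C730002L08Rik* and *Gm6684* on the opposite strand, so reads of the overlap are uncertain in the same way as for *Rarb*.

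Set against the mean of the other 20 clusters, the members gave 30 calls over the 21 clusters, with 8 members tested in each, beside 5.37% of the tests of 14465 genes over all these contrasts and 3.23% to 8.59% per cluster. Of these, 15 were of *Aldh1a1*, higher in I5, I6, V4, V6, V9 and V10 and lower in I1, I2, I3, I4, I7, S1, S3, V7 and V8. *Rarb* was higher in I1 and I7 and lower in V1, V4, V7 and V9, *Rxrg* was higher in I5, I6 and V8, *Rara* in I5, S1 and S2, *Cyp26b1* in S1 and S2, and *Aldh1a2* in S1. *Rarg* and *Rxra* were called in none of the 21 clusters. *Aldh1a2* passed the filter there only through S1 and *Cyp26b1* only through S1 and S2, so their direction was fixed.

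Regions were compared within each class because visceral MNs of the thoracic and upper lumbar cord serve the sympathetic system and those of the sacral cord the parasympathetic system. In visceral MNs, lumbar/sacral libraries had more *Rarb* and *Rxrg* and less *Aldh1a1* than the mean of the cervical and thoracic libraries. Of 4 members tested 3 were called, beside 4.27% of all genes, at an adjusted p under 0.05 with no size required. *Rarb* and *Rxrg* passed the filter only through the lumbar/sacral libraries, so their direction was fixed and this count is a description. In skeletal MNs 0 of 5 and in interneurons 0 of 3 were called by limma, beside 0.0100% and 0.0510% of all genes.

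*Rarb* in visceral MNs was at 9.35, 6.07 and 12.8 CPM in cervical, 6.41, 11.6 and 8.72 in thoracic and 45.8, 37.8 and 44.3 in lumbar/sacral replicates 1 to 3. Every lumbar/sacral value lay above every other, with a log2 difference of 1.77 ± 0.19 (SE; adjusted p with no filter on low values 0.00190). *Rxrg* was at 2.17, 3.95 and 2.41, then 3.15, 1.66 and 4.49, then 15.8, 12.1 and 12.4 CPM, again without overlap, and the log2 difference was 1.22 ± 0.19 (adjusted p with no filter 0.00597). *Aldh1a1* was at 73.9, 42.2 and 59.1 CPM in cervical, 54.2, 44.1 and 42.6 in thoracic and 7.75, 16.3 and 13.9 in lumbar/sacral libraries, a fall of the lumbar/sacral libraries below every other with a log2 difference of -1.71 ± 0.21 (adjusted p = 0.00206, and 0.00332 with no filter). *Rxra*, the fourth member tested, had a difference of -0.03 ± 0.23 (adjusted p = 0.987). Without the 2 libraries at odds with their label the 3 differences were 1.75, 1.20 and -1.83 for *Rarb*, *Rxrg* and *Aldh1a1*, with adjusted p of 0.00169, 0.0178 and 0.00346.

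The visceral clusters were not spread evenly over the regions, and this moved with the 3 results. V8 held 463 lumbar/sacral nuclei of 467 and V9 only 4 of 247, and lumbar/sacral nuclei made up 5.15% of V6 and 33.3% of V5. V1, V2, V3, V4 and V7 were the 5 of 10 visceral clusters with at least 10 nuclei in every library. Summed over the nuclei of these 5 clusters, the *Rarb* difference was 2.09 (adjusted p = 0.000736), while those of *Rxrg* (0.77, adjusted p = 0.327) and *Aldh1a1* (-1.30, adjusted p = 0.118) were not called. With equal weight to each of the 5 the values were 1.47 (adjusted p = 0.00859), 0.73 (adjusted p = 0.527) and -1.12 (adjusted p = 0.205). The 6 astrocyte markers added up to 33.3 to 49.7 CPM in the lumbar/sacral visceral sums and to 18.6 to 29.4 CPM in the others. This was nearly all *Slc1a2* (29.9 to 47.1 against 12.1 to 23.8 CPM), and the other 5 added up to 2.58 to 4.24 against 1.34 to 7.59 CPM. The 3 cholinergic markers added up to 471 to 513 against 529 to 807 CPM. The part of these markers in the result was not tested. Depth also went with region, with a median nucleus of 4712 to 7175 corrected counts in lumbar/sacral libraries and 7087 to 16127 in the others. The part of depth in these results was not tested.

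Within single clusters the lumbar/sacral values of *Rarb* lay above all others in V2 and V3. In V2 it was at 3.71, 4.96 and 0 CPM in cervical, 8.75, 0 and 15.8 in thoracic and 71.6, 102 and 120 in lumbar/sacral replicates 1 to 3. In V3 the lumbar/sacral libraries were at 54.0, 38.6 and 64.5 CPM and the other 6 at 2.56 to 16.1 CPM. *Rxrg* in V1 was at 19.6, 17.0 and 15.1 CPM in lumbar/sacral and 0.815 to 3.45 CPM in the other libraries, but these lumbar/sacral values are 2, 3 and 2 corrected counts in 23, 26 and 24 nuclei. *Rarg* in V7 was at 32.8, 17.6 and 14.6 CPM in lumbar/sacral libraries, or 3, 3 and 2 corrected counts, and at 0 to 11.4 CPM in the others. *Rarb* in V2 rests on 40, 46 and 30 corrected counts in the lumbar/sacral libraries and in V3 on 22, 19 and 19. *Aldh1a1* in V4 was at 28.3, 45.2 and 13.7 CPM in lumbar/sacral libraries, under the 53.2 to 183 CPM of the others. Each of these 5 differences had the smallest p that the two-sided exact permutation test over 84 groupings allows (0.0119), but over the 54 tests in 14 clusters their adjusted p was 0.129 and none passed, with or without the 2 libraries at odds with their label. A test at the smallest p cannot pass this adjustment unless many more tests reach it, so the lack of calls does not decide these differences. The 4 that were higher entered the tests only through the lumbar/sacral libraries, so their direction was fixed. In *Aldh1a1* of V3 the library labelled cervical replicate 2 was at 1.85 CPM beside 51.1 and 35.4 in its region, and that labelled thoracic replicate 2 at 15.4 beside 2.59 and 1.39.

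**Figure D5:**
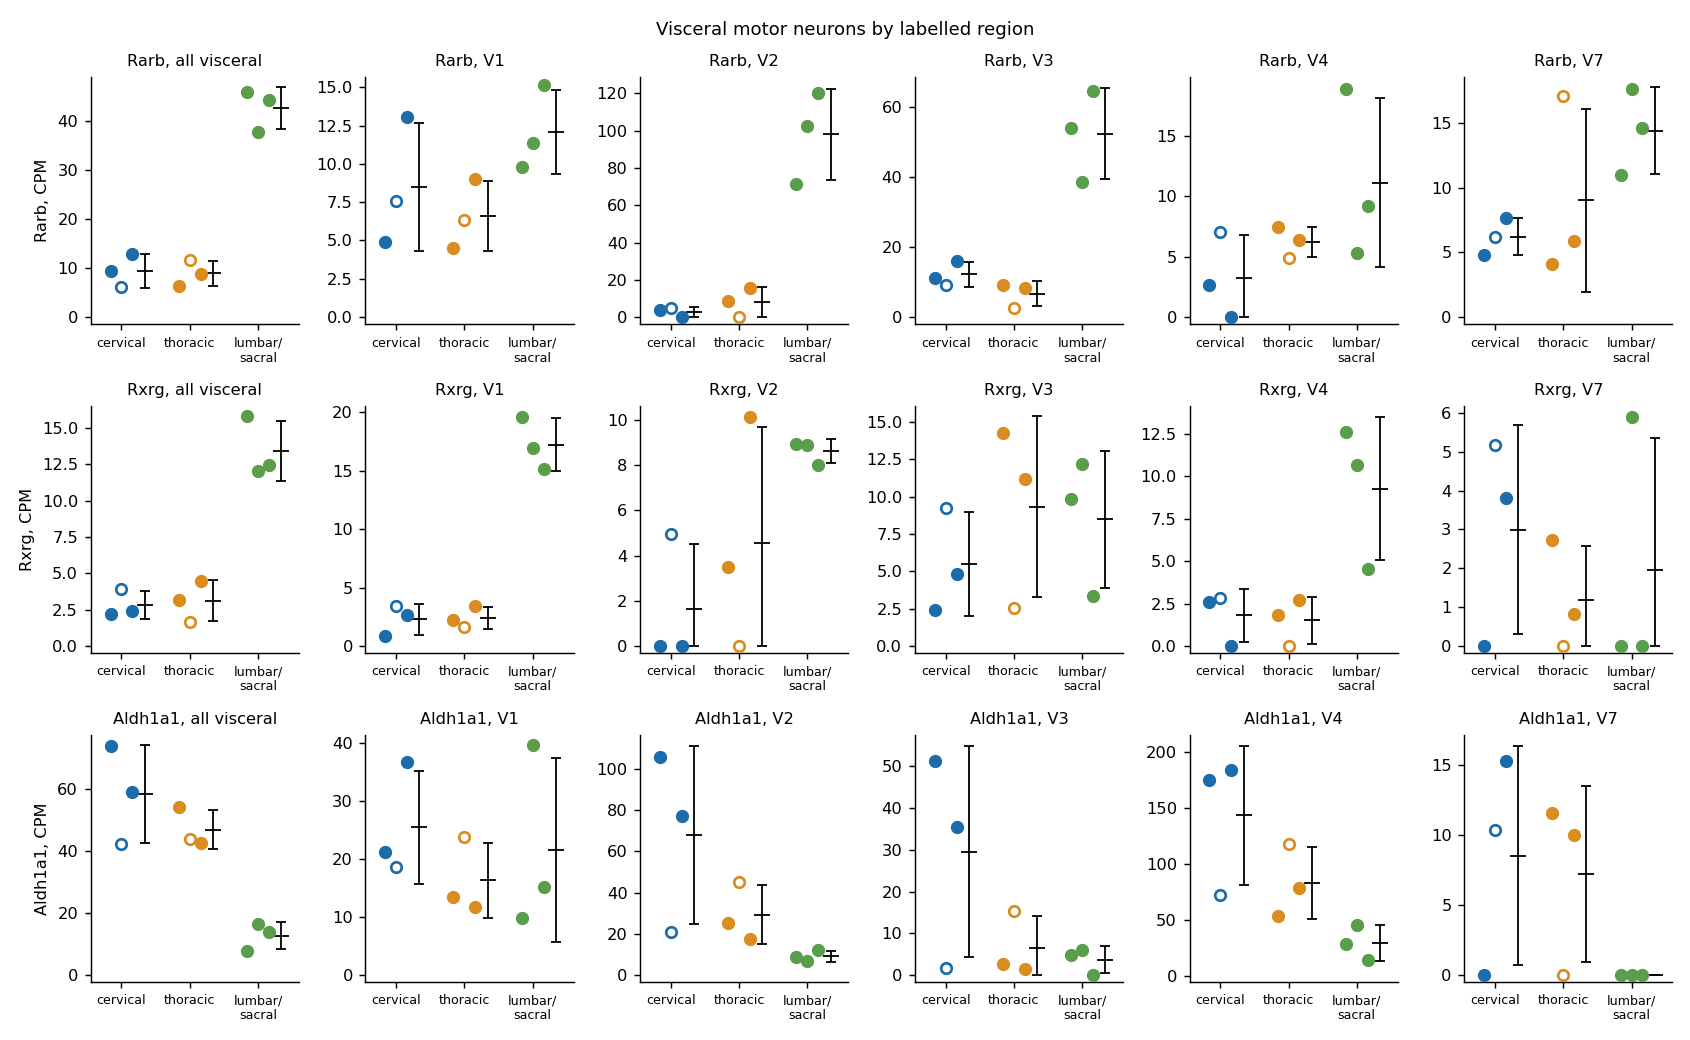
*Rarb*, *Rxrg* and *Aldh1a1* in all visceral MNs and in V1, V2, V3, V4 and V7, in CPM, by labelled region, with a point per library, open circles for the 2 libraries whose Hox levels go against their label and bars for mean ± SD of 3 libraries cut at 0. In all visceral MNs the lumbar/sacral points lie above all others for *Rarb* (37.8 to 45.8 CPM) and *Rxrg* (12.1 to 15.8 CPM) and below all others for *Aldh1a1* (7.75 to 16.3 CPM), and the scale differs between panels.

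In interneurons *Aldh1a1* was at 48.4, 79.4 and 37.3 CPM in cervical, 60.8, 16.5 and 73.3 in thoracic and 10.0, 7.32 and 18.5 in lumbar/sacral replicates 1 to 3. The library labelled thoracic replicate 2 lay among the lumbar/sacral values, and the difference of -1.69 ± 0.42 (SE) was not called (adjusted p = 0.409; 0.0591 without the 2 libraries at odds with their label, with -1.84). I5 and I6, its main interneuron clusters, held lumbar/sacral nuclei at 30.3% and 31.4%, and over I1 to I6, the clusters with at least 10 nuclei in every library, the difference was -1.68 summed over nuclei (adjusted p = 0.318) and -0.39 with equal weight to each of them (adjusted p = 1.0). In skeletal MNs *Rara*, *Rarb*, *Rarg*, *Rxra* and *Aldh1a2* had lumbar/sacral differences of -0.10 to 0.57, all with adjusted p of 0.900 or more.

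The difference between classes was tested itself, as an interaction of class and region. The lumbar/sacral change of *Rarb* was larger in visceral MNs than in skeletal MNs by 1.87 ± 0.19 on the log2 scale (adjusted p = 0.000208) and than in interneurons by 1.43 ± 0.20 (adjusted p = 0.00104). That of *Rxrg* was larger by 1.15 ± 0.18 (adjusted p = 0.00343) and 1.69 ± 0.20 (adjusted p = 0.000376). That of *Aldh1a1* differed from skeletal MNs by -1.89 ± 0.28 (adjusted p = 0.00268) and from interneurons by -0.03, which was not called. These 3 and 2 calls among 7 members tested stand beside 5.72% and 8.58% of all genes. Without the 2 libraries at odds with their label the differences from skeletal MNs were 1.93, 1.24 and -1.79 for *Rarb*, *Rxrg* and *Aldh1a1* (adjusted p = 0.000418, 0.00241 and 0.00720), and those from interneurons 1.43 and 1.67 for *Rarb* and *Rxrg* (adjusted p = 0.00141 and 9.26e-05). The third interaction, interneurons minus skeletal MNs, called none of the members beside 0.133% of all genes, and without this pair it called *Aldh1a1* (-1.79, adjusted p = 0.0182).

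Other genes of the pathway were taken from 6 lists of 74 genes, of which 63 were in the table. They were set beside the members to show which steps of the pathway are present. Of the enzymes that interconvert retinol and retinaldehyde, 11 were measured and 4 tested, and 0 were called in any class (*Rdh10*, which makes retinaldehyde, was at 15.9 ± 4.07 CPM in interneurons, 16.1 ± 2.37 in visceral and 22 ± 2.26 in skeletal MNs). Of 13 genes for uptake, storage and carriers 1 was tested and 0 called, and the 4 other enzymes of synthesis and clearance had class means of at most 1.87 CPM.

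Of 11 nuclear receptors tested that pair with retinoid X receptors or belong to their family, 4 were called lower in interneurons, 2 higher in skeletal MNs and 2 higher and 1 lower in visceral MNs, beside 6.59%, 10.2% and 7.69% of all genes called in these comparisons. Their median log2 differences were -0.64, 0.26 and 0.10. *Pparg*, a receptor for fatty acids, was at 41.4 ± 5.02 CPM in skeletal MNs, with 7.41 ± 1.57 in interneurons and 6.73 ± 3.91 in visceral MNs. *Thrb*, a thyroid hormone receptor, was at 161 ± 35.4 CPM in interneurons, 237 ± 54.6 in visceral and 545 ± 96.0 in skeletal MNs. *Nr2f2*, an orphan receptor, was at 5.36 ± 1.26 CPM in interneurons, 34.6 ± 14.4 in skeletal and 139 ± 39.5 in visceral MNs. Of 13 coregulators, *Nrip1*, a corepressor, was the only one called, higher in skeletal and visceral MNs (186 ± 34.8 and 164 ± 37.1 CPM) and lower in interneurons (31.3 ± 6.55 CPM).

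Of 7 known target genes of retinoic acid that were tested, 3 were called higher and 2 lower in interneurons, 2 higher and 1 lower in skeletal MNs, and 2 higher and 4 lower in visceral MNs, with median log2 differences of 0.30, -0.63 and -1.38 and beside the same shares of all genes (6.59%, 10.2% and 7.69%). This list also holds *Rarb*, and *Nrip1* is on it as well as among the coregulators. *Hoxb4* and *Hoxb5*, transcription factors of the anterior cord, were called higher in interneurons (34.9 ± 5.49 and 28.2 ± 3.93 CPM) like *Rarb*. *Ret*, a receptor for neurotrophic factors of the GDNF family, was called higher in skeletal MNs at 143 ± 23.7 CPM. Within visceral MNs *Ret* was higher in lumbar/sacral libraries (37.4 ± 7.10, n = 3, against 7.95 ± 2.21 CPM, n = 6; log2 difference 1.71, adjusted p = 0.000761), as *Rarb* was, whereas *Meis1*, a homeobox gene, was lower (369 ± 43.7 against 765 ± 138 CPM; -1.03, adjusted p = 0.00677). A fall of *Ncoa3*, a coactivator, was the other call from the lists in that comparison (-0.59, adjusted p = 0.0168). Like *Rarb*, *Ret* passed the filter only through the lumbar/sacral libraries, so its direction was fixed. The uneven spread of the visceral clusters over the regions bears on these genes as well.

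The genes whose mean log2(CPM + 5) over the 21 clusters correlated best with a member were listed as a description, among 14465 genes that passed the filter. For *Aldh1a2* they were *Gm16013*, *Rufy4* and *Npas1* (Pearson r of 0.983, 0.978 and 0.973), and for *Cyp26b1* *Ildr1*, *Uts2b* and *Gm40578* (0.988, 0.975 and 0.971). *Rxrg* was followed by *Gldn*, *Gm10714* and *Afap1l2* (0.927, 0.913 and 0.911), *Rarb* by *BC030499*, *Wwp1* and *Necab2* (0.868, 0.866 and 0.839) and *Aldh1a1* by *C730002L08Rik*, *Ncoa2* and *Mob3b* (0.909, 0.835 and 0.830). The first gene for *Aldh1a1* is the one that overlaps it on the other strand. For *Rara* the genes were *Zbtb16*, *Kcng4* and *5930412G12Rik* (0.885, 0.881 and 0.872), for *Rarg* *Ackr4*, *Ccdc6* and *Gm28410* (0.910, 0.874 and 0.864), and for *Rxra* *Galnt13*, *Nme5* and *Tubd1* (0.757, 0.752 and 0.729). The clusters share libraries, and a gene confined to 1 or 2 clusters correlates well with any other of that kind.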

How the data were processed

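Nuclei were sorted as GFP+ and DRAQ5+ and sequenced on the 10x Chromium 3′ platform, version 3 chemistry. Per the labels and the methods of the study, reads went through Cell Ranger 3.1.0 with unspliced (pre-mRNA) transcripts of GRCm38 as reference, and the authors removed outlying nuclei and normalized each barcoded region with SCTransform in Seurat. The deposited values are whole-number corrected counts, a score made by that model and not a count of molecules, so no count model was fitted to them. Class, cluster and region came from the authors' labels of 34231 nuclei, of which 16042 are cholinergic. Doublets were not called again. The strand setting of the counting is not given in the sources used here. Gene positions and overlaps are from GENCODE models of GRCm38, and promoter sequences are from RefSeq on GRCm38.p6.

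Corrected counts were summed per library and class or cluster of at least 10 nuclei, scaled to 1000000 (CPM) and tested by limma-trend (limma 3.58.1, R 4.3.3) on log2(CPM + 5) where a gene had 10 CPM or more in at least 3 sums, with Benjamini-Hochberg adjustment over all genes tested. Class, type and cluster fits had a term for the library and required a log2 difference of at least 1; region fits had no block. Single values were compared by two-sided exact permutation tests in Python 3.11.15 with scipy 1.17.1. Shares of nuclei were also computed after thinning to 4600 corrected counts, which left out 8.63% of nuclei. On simulated data with the layout of the class comparison (10500 genes, 200 changed), 19% of 2-fold and 91% of 4-fold changes were recovered with 0% false calls. In that of S1 minus S3 (10840 genes) it was 18%, 88% and 0%, and in that of visceral regions (9795 genes) 79%, 95% and 6.95%. In the class and S1 minus S3 layouts a 2-fold change lies at the size required, and the added 5 CPM shrinks log2 differences of low genes. The part of each in its low recovery was not tested. The simulated sums were independent and had the same spread for all genes, unlike these libraries, so the shares do not measure performance on these data.

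The members, the lists and the tests were chosen with earlier results of these data known. All 10 members were named in every comparison. From the lists, called genes were named in order of size up to 5 per list and comparison, with undetected steps given by counts, and *Rdh10* was named after its values were seen. The 3 genes with the highest correlation were named for each member that passed the filter. Replicates of a number share the same mice, so they are paired by origin: deviations from the region means correlated with a median r of 0.749 in interneurons, 0.673 in skeletal MNs and 0.650 in visceral MNs (lowest -0.191, -0.220 and -0.136), over 0.1 in 7 of 9 pairs each. Alternatives were another scaling, pseudocounts of 1 and 20, no filter and a filter of 10 corrected counts in every sum, the replicate block, equal weight to each cluster with at least 10 nuclei in every library, leaving out libraries and thinning. Those that sum only those clusters, and those of the limb-level permutation tests, of the interactions and of tests within clusters, were added after the data were seen.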

Additional observations from a re-analysis of the deposited data

Results flagged for a closer look

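The effect of region differed between classes for 3 of the 7 members tested, by a test of the difference itself, beside 5.72% of all genes called for visceral against skeletal MNs and 8.58% for visceral MNs against interneurons. The lumbar/sacral difference of *Rarb*, a retinoic acid receptor, was higher in visceral MNs than in skeletal MNs by 1.87 ± 0.19 (SE) on the log2 scale (limma, adjusted p = 0.000208) and than in interneurons by 1.43 ± 0.20 (adjusted p = 0.00104). That of *Rxrg*, a retinoid X receptor, was higher by 1.15 ± 0.18 (adjusted p = 0.00343) and 1.69 ± 0.20 (adjusted p = 0.000376). That of *Aldh1a1*, an enzyme of synthesis, was lower in visceral than in skeletal MNs, at -1.89 ± 0.28 (adjusted p = 0.00268). Lumbar/sacral libraries hold visceral clusters in other proportions than cervical and thoracic ones, and over the 5 of 10 visceral clusters with at least 10 nuclei in every library only the visceral difference of *Rarb* was still called (2.09 summed over nuclei, 1.47 with equal weight). The interactions were not recomputed over these clusters. The lumbar/sacral visceral sums also hold more *Slc1a2*, an astrocyte marker (29.9 to 47.1 against 12.1 to 23.8 CPM), while the other 5 astrocyte markers added up to 2.58 to 4.24 against 1.34 to 7.59 CPM. The part of these markers was not tested. The median nucleus held 4712 to 7175 corrected counts in lumbar/sacral libraries and 7087 to 16127 in the others, and the part of depth was not tested either.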

How the results depend on the processing

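Over the alternatives run for single genes, 189 of 210 values of called genes kept their call, 21 lost it and 0 changed sign. The call lost most often was one of size, since a higher pseudocount shrinks log2 differences. With a pseudocount of 20 the numbers of members called were 1 in each class, 0 between each pair of skeletal clusters and 9 over the 21 clusters. With a pseudocount of 1 they were 4 in interneurons, 4 for S1 minus S2, 5 for S2 minus S3 and 56 over the clusters. Requiring 10 corrected counts in every sum left 1 in each class and 0 between skeletal clusters and over the clusters, because fewer members were tested. Scaling by the median of ratios took *Aldh1a2* in skeletal MNs to 0.99, *Aldh1a1* in S1 minus S2 to -0.996 and *Rara* in S2 minus S3 to 0.99, just under the size required. Leaving out a replicate gave 2 to 3 called members in interneurons, 2 to 3 in skeletal and 1 to 2 in visceral MNs, 0 to 2 for S1 minus S2, 1 to 3 for S2 minus S3, 28 to 32 over the clusters and 2 to 3 for the visceral region comparison. Over the 5 visceral clusters with at least 10 nuclei in every library, 1 member, *Rarb*, was called in the region comparison, both summed over nuclei (an alternative chosen after seeing the data) and with equal weight to each. Without the 2 libraries at odds with their label, the interaction of interneurons minus skeletal MNs called 1 member, *Aldh1a1* (-1.79, adjusted p = 0.0182). The replicate block changed the call of no member, while over all genes it took the calls in visceral MNs from 428 to 737, in interneurons from 5 to 44 and in skeletal MNs from 1 to 4.

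Signs turned only for values that were not called. With scaling by the median of ratios, the lumbar/sacral differences in skeletal MNs of *Rara* and *Rarg* were -0.022 and -0.021. Without the 2 libraries at odds with their label they were -0.14 for *Rara* and -0.022 for *Rxra*, the interaction of visceral MNs minus interneurons for *Aldh1a1* was 0.0075, and limb levels minus thoracic for *Aldh1a2* in S2 was 0.43. In visceral MNs *Rxra* over those 5 clusters was at 0.13 summed over nuclei, equal weight to I1 to I6 gave *Rxrg* 0.11 in interneurons, and a pseudocount of 1 gave -0.23 for *Aldh1a1* and -0.00040 for *Rxra* for limb levels in S2. Leaving out 1 library at a time, limb levels minus thoracic in S2 ran from -0.16 to 0.30 for *Aldh1a1*, -0.29 to 0.46 for *Rxra*, -0.43 to 0.0069 for *Rarb*, -0.25 to 0.40 for *Rarg* and -0.33 to 0.36 for *Aldh1a2*, and in skeletal MNs from -0.30 to 0.10 for *Rara*. The lumbar/sacral difference in skeletal MNs then ran from -0.053 to 0.27 for *Rara*, -0.18 to 0.017 for *Rarb* and -0.0092 to 0.17 for *Rarg*, that of *Rxra* in visceral MNs from -0.24 to 0.080, and the interaction of *Aldh1a1* in visceral MNs minus interneurons from -0.38 to 0.24. Leaving out a replicate, S1 minus S2 ran from -0.39 to 0.066 for *Rarb* and S1 minus S3 from -0.063 to 0.20 for *Aldh1a1*. The cause was not tested. Thinning moved 11 of the shares of nuclei by more than the SD between libraries, all of receptors, and lowered each of them. Depth limits the low genes most: *Aldh1a2*, *Cyp26b1*, *Aldh1a3* and *Crabp1* rest on 354, 266, 15 and 201 corrected counts.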
